A study of Homo sapiens with 2 samples.

Results

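Genes for laminin chains, laminin-binding integrins and the hyaluronan receptor CD44 were examined for IGF2BP3 binding in OE-19 cells. The 9 genes were CD44, ITGA2, ITGA3, ITGA6, ITGB1, ITGB4, LAMA5, LAMB3 and LAMC1, of 20046 protein-coding genes in GENCODE 44, and they were taken by name. Every deposited peak that overlapped an exon of any of their transcripts by at least 1 bp was used. This gave 30 peaks for replicate 1, from a list of 21142, and 50 for replicate 2, from a list of 20799. Among peaks on exons of protein-coding genes, these were 30 of 17650 and 50 of 17803.

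OE-19 is a human cell line established from a tumor of the esophagogastric junction, an adenocarcinoma, and the cells carried no treatment or genetic change named in the labels. LACE-seq, in which cDNA ends are amplified linearly and sequenced, maps RNA that was crosslinked to a protein by UV light and pulled down with an antibody, here against IGF2BP3. Both libraries belong to a single group, labelled rep1 and rep2, and the study describes its LACE-seq replicates as biological. With no second group and no control library analysed here, no test between conditions could be made, and each value is a description of these lists.

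Laminins are cross-shaped trimers of an α, a β and a γ chain that form the scaffold of the epithelial basement membrane. Integrins are αβ pairs that span the plasma membrane, and the pairs of ITGA3, ITGA6, ITGB1 and ITGB4 products hold epithelial cells to laminin, with the ITGA6 and ITGB4 pair anchored to keratin in hemidesmosomes. CD44 binds hyaluronan and exists in many isoforms made by inclusion of variant exons. IGF2BP3 is an RNA-binding protein with KH and RRM domains that prefers mRNA and is described as a reader of N6-methyladenosine (m6A), a mark placed mostly on adenosines in GGAC-like contexts.

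Coding sequences under a shared peak pair of 5 genes are shown first, because coding bases made up most of the exonic bases of most peaks. For each of these genes the pair is the one with the largest lower fold of the 2 replicates among pairs whose exonic bases were mainly coding in both. Each line gives the coding bases of the named exon that lay under both peaks in hg38, read 5′ to 3′ on the strand of the gene, with the tetramer GGAC in capitals.
LAMA5 exon 5, chr20:62351920-62352079, minus strand: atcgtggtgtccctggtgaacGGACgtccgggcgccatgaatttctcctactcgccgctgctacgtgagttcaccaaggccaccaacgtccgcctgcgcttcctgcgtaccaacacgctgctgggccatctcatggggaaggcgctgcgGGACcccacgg
LAMB3 exon 15, chr1:209623840-209623996, minus strand: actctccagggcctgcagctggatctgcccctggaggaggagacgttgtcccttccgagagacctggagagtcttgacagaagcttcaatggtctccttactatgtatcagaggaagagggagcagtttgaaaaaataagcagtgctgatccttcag
ITGA6 exon 6, chr2:172474055-172474202, plus strand: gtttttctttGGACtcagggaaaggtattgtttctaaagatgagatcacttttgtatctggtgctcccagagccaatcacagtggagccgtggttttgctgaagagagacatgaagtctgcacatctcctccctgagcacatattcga
ITGB1 exon 4, chr10:32929877-32930044, minus strand: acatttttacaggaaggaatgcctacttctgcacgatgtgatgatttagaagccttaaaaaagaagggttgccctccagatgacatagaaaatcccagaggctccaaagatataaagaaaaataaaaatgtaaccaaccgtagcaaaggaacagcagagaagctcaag
ITGB4 exon 8, chr17:75730241-75730450, plus strand: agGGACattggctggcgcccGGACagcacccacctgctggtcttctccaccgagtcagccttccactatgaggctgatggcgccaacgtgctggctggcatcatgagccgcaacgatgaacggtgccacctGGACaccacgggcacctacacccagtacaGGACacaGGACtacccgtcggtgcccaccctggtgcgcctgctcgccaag
The LAMA5 pair also covered exon 4 and the LAMB3 pair exon 16, which are not shown and whose motifs are not counted here. The LAMB3 and ITGB1 windows held no GGAC, the ITGA6 window held 1, the LAMA5 window held 2 and the ITGB4 window held 5. These counts describe the printed coding bases only. Both summits of the LAMA5, LAMB3 and ITGB1 pairs, and the replicate 1 summit of the ITGB4 pair, were intronic and lay outside the windows. For ITGA3 the shared pair covered mainly 3′ UTR, and ITGA2 and CD44 had no shared pair. LAMC1 is not shown, although its exon 2 pair, at 12.2- and 12.8-fold, had the largest lower fold of the mainly coding pairs. The coding bases of exon 2 under both of its peaks held 2 GGAC.

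A peak was present in both lists for 8 of the 9 genes, against 31.6% of all protein-coding genes. Among protein-coding genes within 20% of the CD44 mRNA length of 5431 nt, this share was 41.5%. The canonical mRNAs of the 9 genes ranged from 3735 to 11426 nt, and expression was not matched. CD44 was the exception among the 9, with no exonic peak in either list. ITGA2 had a single peak in each list, and these lay at opposite ends of the transcript. The remaining 7 genes had at least 1 pair of overlapping peaks. The lists held 40.0 ± 14.1 peaks of the 9 genes (SD, n = 2). This number fell to 25.5 when the summit had to lie in an exon and to 13.0 when only the 5000 most significant peaks of each list were used, with 4 genes then present in both.

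**Figure D1:**
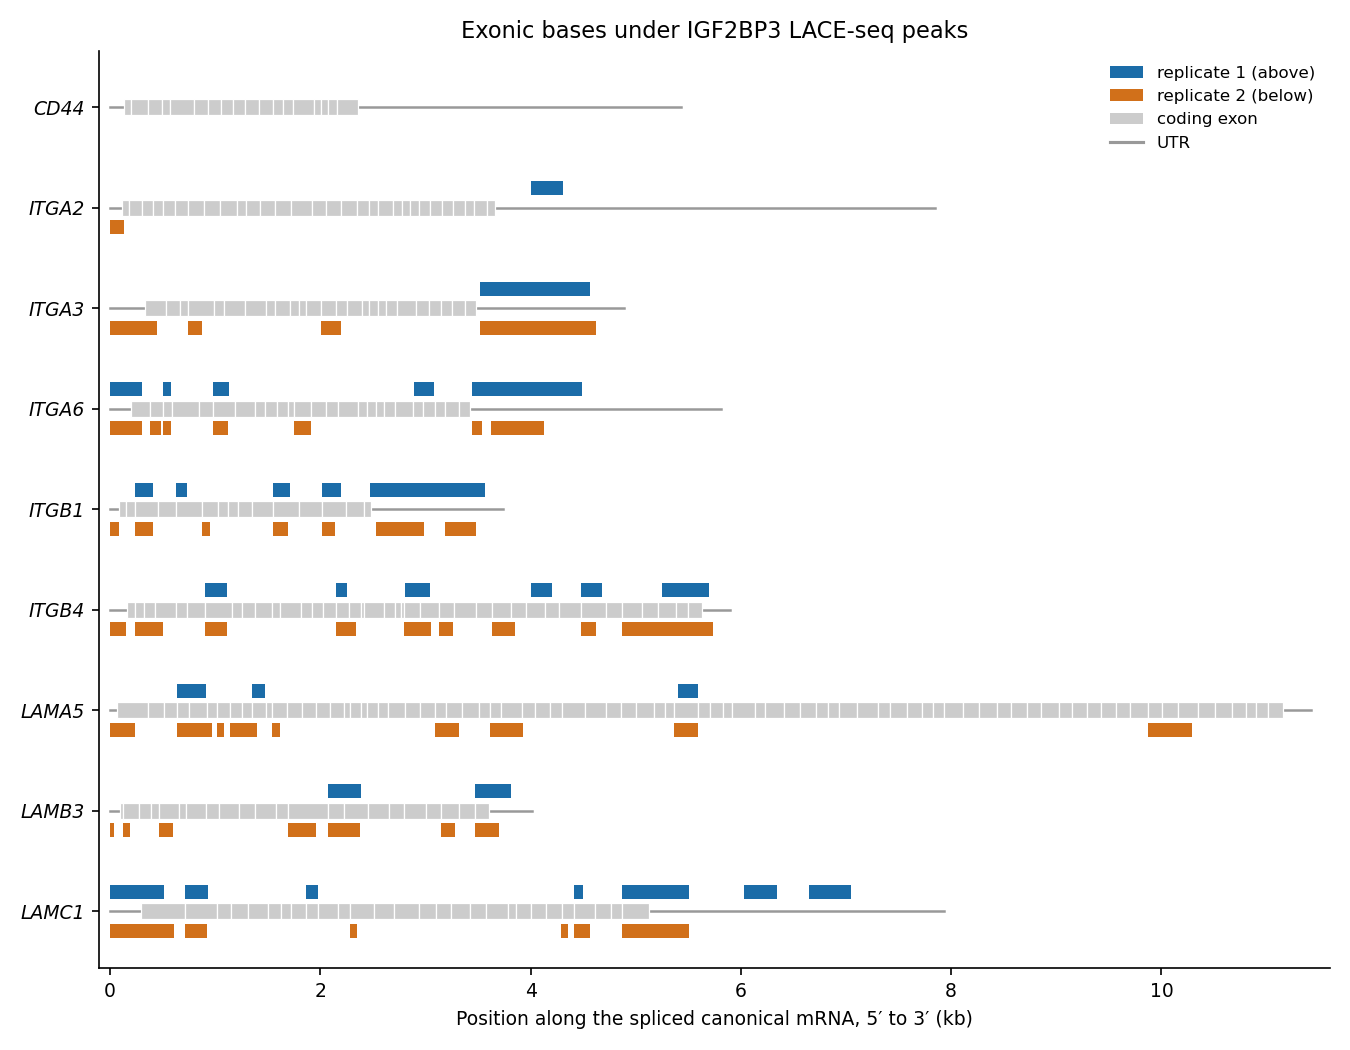
Exonic bases under a peak along the spliced canonical mRNA of each gene, 5′ to 3′ in kb, with replicate 1 above (blue) and replicate 2 below (orange) the coding exons (grey boxes) and UTRs (grey lines). All genes but CD44 had a peak at the start of the transcript in replicate 2, and only ITGA6 and LAMC1 had one there in replicate 1.

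Per kb of canonical mRNA, ITGB1 carried 1.34 and 1.87 peaks in replicates 1 and 2, the highest density of the 9 genes. ITGB4 followed with 1.02 and 1.53. LAMB3 had 0.498 and 1.74, and ITGA6 had 0.860 and 1.2. LAMC1 was the most even gene with peaks in several exons, at 0.883 and 0.757. LAMA5 had 0.263 and 0.788, ITGA3 had 0.205 and 0.818, and ITGA2 had 0.128 in each. ITGB1 was the highest in both lists, ITGA2 lay below the other genes with peaks in both, and CD44 was at 0. Between neighbours in this order, from ITGB1 down to ITGA3, the ranges of the 2 replicates overlapped. Within each list ITGB1 lay above ITGB4, whereas every other pair of neighbours down to ITGA3 changed order between the 2 lists. The median over all genes with peaks in both lists was 0.625 and 0.626.

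**Figure D2:**
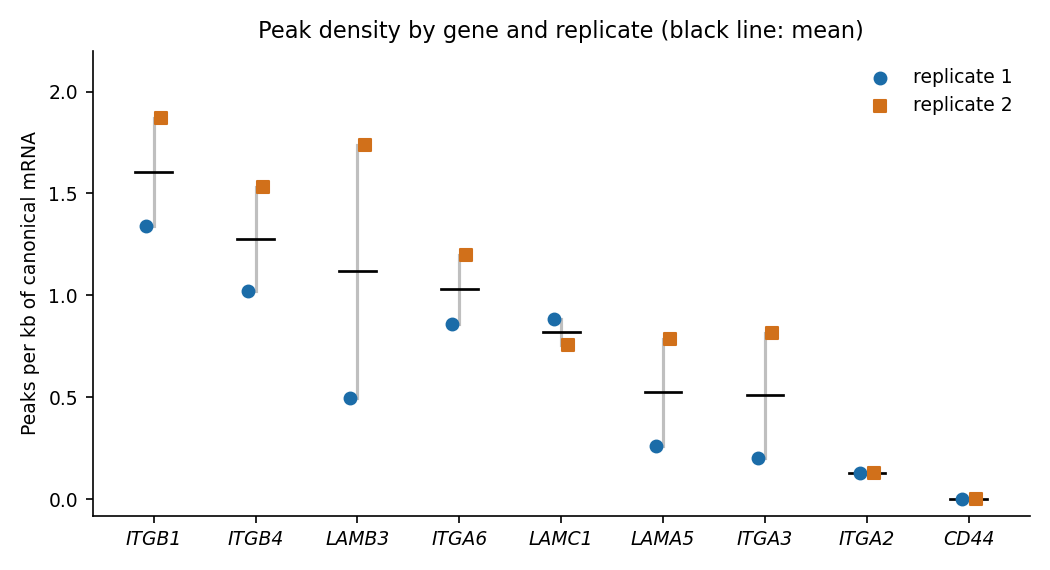
Peaks per kb of canonical mRNA for each gene, ordered by the mean of the 2 replicates (black lines), with replicate 1 as circles and replicate 2 as squares. Replicate 2 lay above replicate 1 in 6 genes, by most in LAMB3, and below it in LAMC1.

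Among the laminin chains, LAMC1, which encodes the widely used γ1 chain, had 7 peaks in replicate 1 and 6 in replicate 2, of which 4 in each were shared. The gene lies on the plus strand of chromosome 1, from 183023420 to 183145592. Its strongest pair covered exon 2, with 12.2-fold enrichment over the local background in replicate 1 and 12.8-fold in replicate 2. The summits of this pair were 32 bp apart, and the pileups, the numbers of reads stacked at the summit, were 24 and 22. A wider pair crossed the stop codon into the 3′ UTR, with 72 and 33 reads and summits at the same base. LAMC1 also carried a pair on its first exon, which rose from 7.30-fold and 14 reads in replicate 1 to 12.6-fold and 44 reads in replicate 2. Both peaks farther down the 3′ UTR were found only in replicate 1 and were weak, at 3.71- and 3.95-fold.

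LAMB3 encodes the β3 chain of the laminin found beneath hemidesmosomes, on the minus strand of chromosome 1 from 209614870 to 209652425. It had 2 peaks in replicate 1 and 7 in replicate 2, and both replicate 1 peaks recurred. The stronger pair lay on the last exon, over the stop codon, at chr1:209615069-209615597 with 7.78-fold and 33 reads, and at chr1:209615181-209615535 with 5.86-fold and 34 reads. The second pair, on exons 15 and 16, had 5.66-fold with 34 reads and 5.01-fold with 52 reads. The 5 peaks seen only in replicate 2 lay on exons 1, 3, 6, 14 and 21 and held 22 to 52 reads each.

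LAMA5 encodes the α5 chain, the main laminin α chain of adult epithelial basement membranes, in 80 exons on the minus strand of chromosome 20 from 62307955 to 62367312. It had 3 peaks in replicate 1, all of them shared, and 9 in replicate 2. The strongest pair, on exons 4 and 5, lay at chr20:62351920-62352571 with 5.50-fold and 57 reads, and at chr20:62351753-62352591 with 6.01-fold and 55 reads. The pair on exon 41 held 95 and 76 reads at 4.49- and 3.05-fold. LAMA5 thus combined many reads with low fold. Its median pileup was 57.0 and 55.0 reads, against 24.0 and 23.0 over all exonic peaks, whereas its median fold was 4.98 and 3.72, against 6.82 and 7.11. The local background behind its peaks had a median of 9.55 and 10.5 reads, against 2.29 and 1.97. No peak touched the last exon of LAMA5 in either list, and the only peak beyond exon 41 lay on exons 72 to 74 in replicate 2.

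Among the integrin α subunits, ITGA6 had the most, with 5 peaks in replicate 1 and 7 in replicate 2, on the plus strand of chromosome 2 from 172427354 to 172506459. It encodes the α6 subunit, which pairs with either β subunit described here. Its last exon carried the strongest signal of all 9 genes in replicate 1. The peak at chr2:172503876-172505130 had 13.9-fold enrichment, 155 reads and a −log10 q of 117, which placed it at percentile 97.6 of all exonic peaks by fold and 99.6 by reads. In replicate 2 the same stretch was split into a peak of 6.25-fold and 35 reads at its start and a peak of 13.3-fold and 75 reads at chr2:172504266-172504770, with a summit 15 bp from that of replicate 1. A pair on exon 3 had 7.44- and 8.19-fold, and a pair on exon 6 had 7.75- and 8.03-fold with summits 1 bp apart. These coding pairs were even between replicates, with 18 and 19 reads and with 19 and 16 reads. The first exon was less even, with 8.30-fold and 18 reads in replicate 1 and 16.9-fold and 58 reads in replicate 2, the largest fold of any of the 80 peaks.

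ITGA3 encodes the α3 subunit, the partner of β1 in laminin binding outside hemidesmosomes. Its only peak in replicate 1, at chr17:50088960-50090155, lay on the last exon with 7.22-fold and 35 reads. In replicate 2 the peak at chr17:50088914-50090218 covered it fully, with 8.18-fold and 69 reads, although the summits were 511 bp apart. Replicate 2 had 3 further peaks, on exon 1 with 8.76-fold, on exon 4 with 6.90-fold and on exons 13 and 14 with 4.77-fold. Over all annotated exons, 10.7% and 20.2% of ITGA3 bases lay under a peak, and the mean rose from 15.4% to 30% when only the canonical transcript was counted.

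ITGA2 encodes the α2 subunit, best known as a collagen receptor when paired with β1. Its peak in replicate 1, at chr5:53090945-53091241, lay in the 3′ UTR with 6.51-fold and 20 reads. Its peak in replicate 2, at chr5:52989193-52989486, reached from upstream of the annotated gene over the first exon and the start codon. The latter had 5.29-fold and 6 reads, the fewest of the 80 peaks. Presence in both lists therefore did not mean a shared site for ITGA2.

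The β subunit genes had peaks in several parts of the transcript. ITGB1, which encodes the β1 subunit common to many integrins, had 5 and 7 peaks on the minus strand of chromosome 10. Its best pair lay on exon 4, at chr10:32929877-32930293 with 10.1-fold and 35 reads and at chr10:32929870-32930257 with 9.32-fold and 19 reads, and the summits were 2 bp apart. Pairs on exon 12 (10.2- and 7.34-fold) and exon 14 (8.42- and 6.80-fold) had summits 19 and 4 bp apart. In the 3′ UTR, a single peak of 10.8-fold and 67 reads in replicate 1 overlapped 2 peaks of 6.52- and 4.72-fold with 13 and 9 reads in replicate 2. The 31-mers at these 3 summits occurred at 2 places in the genome, whereas the 31-mer at each of the other 77 summits occurred once, so the origin of the reads there is less certain. All 5 pairs of ITGB1 had more reads in replicate 1. Of its canonical mRNA, a mean of 40.9% lay under a peak, and of the union of all 36 annotated transcripts 10.8%.

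ITGB4 encodes the β4 subunit, whose long cytoplasmic tail connects hemidesmosomes to keratin through plectin. It had 6 peaks in replicate 1 and 9 in replicate 2 on the plus strand of chromosome 17, the most of the 9 genes in replicate 2 together with LAMA5, and 25.1% and 42.0% of its exonic bases lay under a peak. Among all protein-coding genes, 3.06% had as many peaks in replicate 1 and 0.828% in replicate 2. All 5 of its pairs were mainly coding. The best, on exon 8, lay at chr17:75730063-75730454 with 8.42-fold and 40 reads and at chr17:75730010-75730450 with 7.91-fold and 59 reads. The pair on exon 34 held more reads, 76 and 92, at 6.33- and 5.60-fold. The pair over the last coding exons and the stop codon held 67 and 86 reads. All 5 pairs of ITGB4 had more reads in replicate 2, the opposite of ITGB1.

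**Figure D3:**
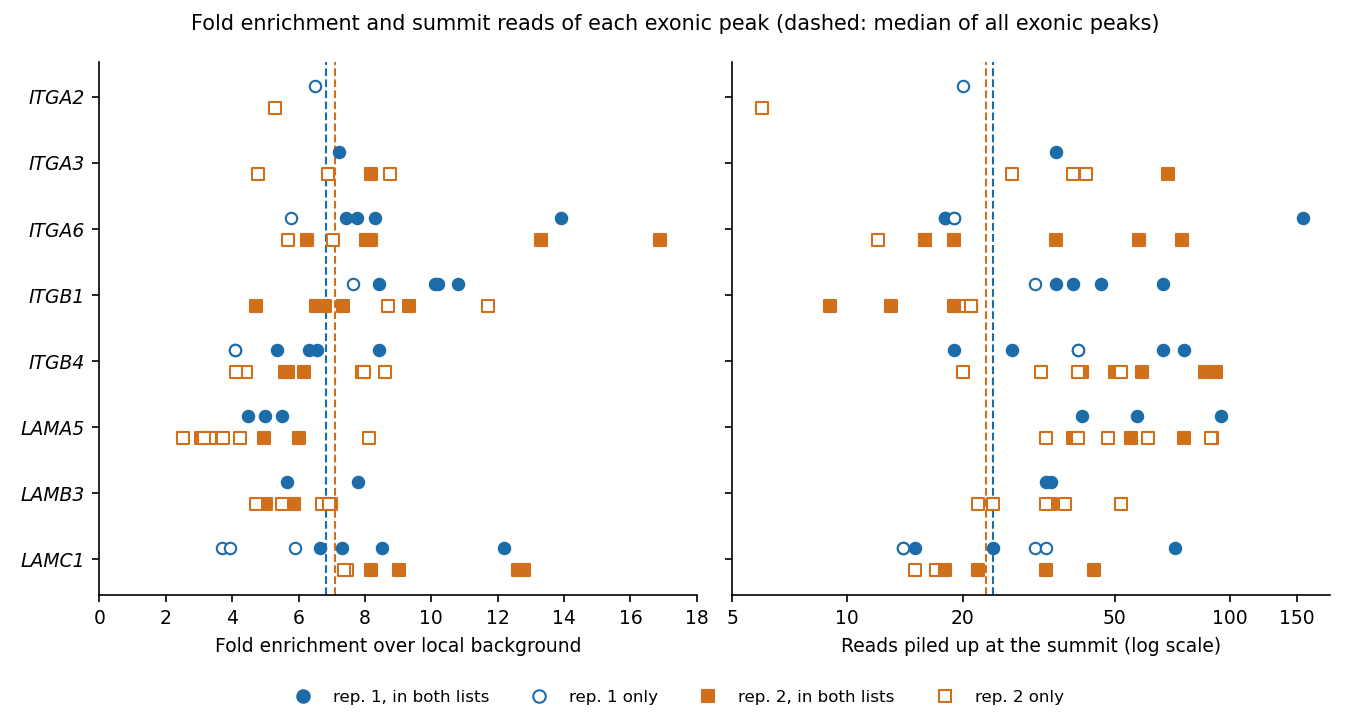
Fold enrichment (left) and pileup at the summit on a log scale (right) of each exonic peak, with replicate 1 as circles and replicate 2 as squares, filled where the peak overlapped the other list. LAMA5 peaks lay mostly left of the dashed medians of all exonic peaks (6.82 and 7.11) for fold and right of them (24.0 and 23.0) for reads.

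Over all 9 genes, the other list was overlapped by 23 of 30 replicate 1 peaks (76.7%) and 25 of 50 replicate 2 peaks (50%). Over all exonic peaks these shares were 61.9% and 61.5%, so the 9 genes lay above the background in replicate 1 and below it in replicate 2. There were 25 overlapping pairs in 7 genes, and the summits of 17 pairs lay within 50 bp of each other. The fold of a pair was related only loosely between replicates, with a Spearman ρ of 0.459 and a Pearson r of 0.407 over the 25 pairs, which share transcripts and, in ITGA6 and ITGB1, peaks. By −log10 q the ρ was −0.0323, and by pileup it was 0.289. The median fold of the 9 genes was 6.94 and 6.85, close to the medians of all exonic peaks, and their median pileup was higher, at 33.5 and 34.5 reads. Their median local background was also higher, at 3.88 and 4.06 reads. The level of each mRNA was not measured in these lists, so that abundant RNA and frequent binding cannot be told apart.

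The replicates differed at the 5′ end. In replicate 1 the first exon lay under a peak in 2 of the 8 genes with peaks, ITGA6 and LAMC1, against 30.8% of all genes with peaks in both lists. In replicate 2 it did so in 8 of 8, against 51.9%. With the summit required to lie in the first exon the count in replicate 2 was 5, and with at least 50% of the peak inside it was 4, whereas replicate 1 stayed at 2, under rules that were added after the data were seen. No share over all genes is given under these rules, so their counts cannot be set against the 30.8% and 51.9%. In ITGA2, LAMB3 and LAMC1 the replicate 2 summit lay upstream of the annotated gene. The first-exon peaks of replicate 2 held 6 reads in ITGA2, 20 in ITGB4, 21 in ITGB1, 22 in LAMB3, 40 in LAMA5, 42 in ITGA3, 44 in LAMC1 and 58 in ITGA6, and their GC content was 59.3% to 81.1%. Last exons showed no such gap, with 7 of 8 genes in replicate 1 and 6 of 8 in replicate 2, against 76.2% and 69.1%.

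**Figure D4:**
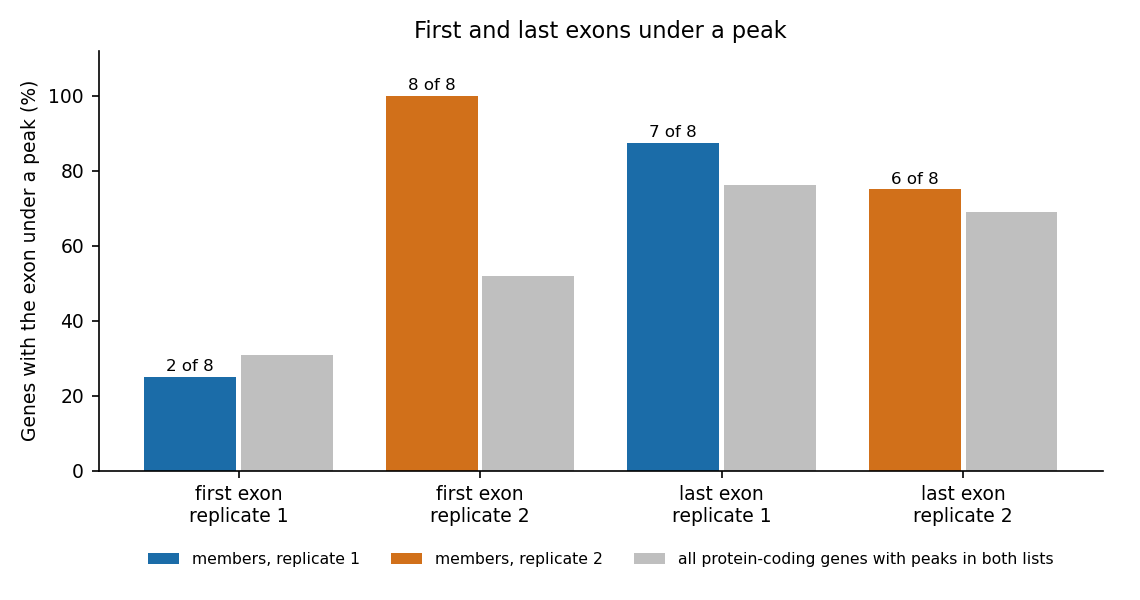
Percent of genes whose first or last exon lay under a peak, for the 8 genes with peaks (blue and orange bars, with counts) and for all protein-coding genes with peaks in both lists (grey bars). First exons rose from 2 of 8 to 8 of 8 between replicates, and last exons went from 7 of 8 to 6 of 8.

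GC content moved with the replicate over the whole lists and over these genes. The member peaks had a median GC content of 48.0% in replicate 1 and 61.9% in replicate 2, and all exonic peaks 49.2% and 56.2%. ITGA3, ITGB4, LAMA5 and LAMB3, whose mRNAs hold 59.5% to 66.4% GC and lie above the upper GC quartile of 56.8% of genes with peaks in both lists, went from 12 peaks to 29. The other 5 genes, at 39.5% to 48.8% GC, went from 18 to 21. Over all genes with peaks in both lists, the ratio of replicate 2 to replicate 1 peaks was 0.996. Among them it was 1.21 above the upper quartile and 0.783 below the lower quartile of 42.8%. The part of GC content in the first-exon and peak-number differences was not tested. Outside first exons, overlap with the other list was found for 21 of the 28 replicate 1 peaks (75.0%) and for 23 of the 42 replicate 2 peaks (54.8%).

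By the class with most of their exonic bases, 20 of the 30 replicate 1 peaks (66.7%) and 39 of the 50 replicate 2 peaks (78.0%) were coding. Background shares were taken over all 18681 and 19014 pairs of an exonic peak and a protein-coding gene, of which 53.7% and 52.7% were coding. The 3′ UTR held 8 and 5 peaks (26.7% and 10.0%, against 30.8% and 24.5%), and the 5′ UTR held 2 and 6 (6.67% and 12.0%, against 10.4% and 18%). These shares depend on how a peak is placed, because a peak could reach beyond its exon. By the base at the summit, the mean coding share was 35.0% instead of 72.3%. No background share by the summit is given, so the difference from background is shown only for the class by exonic bases.

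Of the peaks beyond first exons, 23 of 28 in replicate 1 and 39 of 42 in replicate 2 reached into an intron. The summit itself was intronic for 11 and 15 peaks. The next exon began within 150 nt downstream of 10 of the 11 and of all 15, at a median distance of 24.0 and 56.0 nt. No share over all exonic peaks is given for these intron and summit counts, so they cannot be set against a background. The narrowest peak of these genes was 293 bp wide in replicate 1 and 294 bp in replicate 2. Touched coding exons had medians of 176 and 156 coding nt. The part of peak width in the reach into introns was not tested. Nearness to an exon was largely set in advance, because only peaks that overlapped an exon were taken. Some of these summits, in LAMA5, LAMB3 and LAMC1, lay in short introns and were also within 150 nt of the exon upstream. Whether these positions depend on the aligner, which the sources give as either Bowtie or HISAT2, was not tested. For the exon 2 pair of LAMC1, for example, the replicate 1 summit lay 2 nt before the exon and the replicate 2 summit inside it. The exon 4, 12 and 14 pairs of ITGB1 all had summits 19 to 43 nt upstream of their exon in both lists.

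In total, 32 of 282 coding exons (11.3%) were touched in replicate 1 and 63 (22.3%) in replicate 2, with 25 touched in both. Without CD44, the shares were 12.1% and 23.9%, against 17.8% and 17.6% of the coding exons of all genes with peaks in both lists. Touched exons were longer, with a median of 176 and 156 coding nt against 132 and 129 nt for those not touched. The same held over all genes with peaks in both lists, where the medians were 167 and 170 nt against 117 nt in each. ITGB4 had 10 and 17 of 39 coding exons touched, LAMA5 4 and 18 of 80, and ITGB1 5 and 4 of 15. The stop codon of the canonical transcript lay under a peak in LAMB3, LAMC1 and ITGB4 in both lists and in ITGB1 in replicate 1, that is in 4 and 3 of the 8 genes, against 40.5% and 36.5% of all genes with peaks in both lists. Stop codons of other transcripts were not examined. The last-exon peaks of ITGA3 in both lists and of ITGA6 in replicate 1 covered coding bases of other transcripts together with 3′ UTR.

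Several of these genes encode alternative cytoplasmic tails. In ITGA3 and ITGA6 the choice is made by exon 25, which when included gives the A form and when skipped gives the B form, with translation then running on into exon 26. Exon 25 had no peak in either gene in either list, and exon 26 had one in both genes in both lists. Exon 26 is present in either form, so these peaks do not tell the isoform. Likewise exons 33 and 35 of ITGB4, skipped in 4 and 2 annotated transcripts, had no peak, while exon 34 between them carried a pair.

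CD44 is annotated with 38 transcripts on the plus strand of chromosome 11, from 35138882 to 35232402, and none of its 18 canonical exons lay under a peak. This covered the constant exons as well as exons 6 to 14, each of which is skipped in 8 or more protein-coding transcripts. CD44 was not unusual in this respect. Of the 3326 protein-coding genes with a canonical mRNA within 20% of its 5431 nt, 44.5% had no exonic peak in either list and 41.5% had one in both. A missing peak shows only that none passed the authors' caller, since the depth of the libraries is unknown and the weakest of all deposited peaks held 4 reads.

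Strand was not recorded in the peaks, and a few overlapped annotated RNAs of the opposite strand. These were the first exon of ITGA6 in both lists, exon 2 of ITGA6 in replicate 2 with ITGA6-AS1, the start of the last exon of ITGA6 in both lists with PDK1-AS1, and the first exon of ITGB1 in replicate 2 with ITGB1-DT. Reads from either gene cannot be told apart at these sites. The stronger replicate 2 peak on the last exon of ITGA6 overlapped no other gene.

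GGAC, read on the gene strand, was present in 80.0% of the peaks in replicate 1 and 84.0% in replicate 2, against 71.3% and 76.2% of all exonic peaks. TGGAC, which contains it, was present in 53.3% and 48.0%, against 35.4% and 36.2%. The peaks of the 9 genes were somewhat wider, with a median of 396 and 366 bp against 340 and 349 bp. In windows reaching 50 nt to either side of the summit, whose length is equal for all peaks, TGGAC was found in 6 of 30 (20%) and 9 of 50 (18%), against 10.1% and 10.0%, and GGAC in 33.3% and 44%, against 29.5% and 32.5%. CATA, CATC or CATT was present in 96.7% and 86.0% of whole peaks, against 93.9% and 89.8%, and GGCA in 83.3% and 80.0%, against 79.4% and 83.2%. The comparison motifs AAAAA (26.7% and 18%, against 37.2% and 28.3%) and TTTTT (50% and 40.0%, against 49.0% and 36.4%) lay below and slightly above the background, respectively. In the windows around the summit, TTTTT was present in 33.3% and 22.0%, against 19.6% and 13.2%, so this comparison motif was above its background there as TGGAC was, and AAAAA was present in 10% and 6%, against 11.3% and 8.02%. Background shares were taken over 18681 and 19014 pairs of a peak and a gene. Only the gene strand was searched, and a match does not mark a bound site.

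Other adhesion genes were counted in 7 lists of 82 genes in all, of which 34 had a peak in both lists (41.5%, against 31.6% of all protein-coding genes). Over all protein-coding genes, 55.3% had no exonic peak in either list. Only ITGAE and ITGA7 of 15 other α subunits had a peak in both lists, with 1 pair each at 8.67- and 8.82-fold and at 6.74- and 4.92-fold, and 11 had none in either. Of 6 other β subunits ITGB5, a partner of αv, had 8 peaks in each list and 5 pairs, the best at 10.8- and 14.8-fold, whereas ITGB2, ITGB3, ITGB7 and ITGB8 had none. Of 9 other laminin chains, LAMB1 had 7 and 5 peaks and 3 pairs, the best at 7.62- and 8.50-fold, and LAMA2, LAMA4, LAMB4 and LAMC3 had none.

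Among 7 hemidesmosome and laminin receptor partners, 5 had a peak in both lists and all 7 had one in at least 1 list. DST, which encodes the hemidesmosomal plakin BPAG1, had 21 and 24 peaks and 14 pairs, and PLEC, which encodes plectin, had 5 pairs, the best at 2.88-fold in each list. DAG1, which encodes the non-integrin laminin receptor dystroglycan, had 3 pairs, the best at 8.85- and 12.1-fold. Of 21 integrin adaptors and kinases, 15 were present in both lists. FERMT1, which encodes kindlin-1 and binds integrin β tails, had 6 pairs with the best at 14.4- and 13.3-fold, and the focal adhesion kinase gene PTK2 had 6 pairs, with the best at 10.8- and 12.3-fold.

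Of 11 other matrix ligands, HSPG2, which encodes perlecan, had 15 and 20 peaks with 11 pairs, AGRN had 3 pairs and COL4A2 had 1, while the other 8 had no peak in either list. Among 13 CD44 partners and hyaluronan enzymes, 6 had a peak in both lists. The sheddase gene ADAM10 had 5 pairs, the best at 12.7- and 8.78-fold, EZR, which encodes the actin linker ezrin, had 4, and the hyaluronidase gene HYAL2 had 2. These lists also differ in the length of their mRNAs, and DST, PLEC and HSPG2 had the longest, at 24709, 14804 and 14341 nt.

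**Figure D5:**
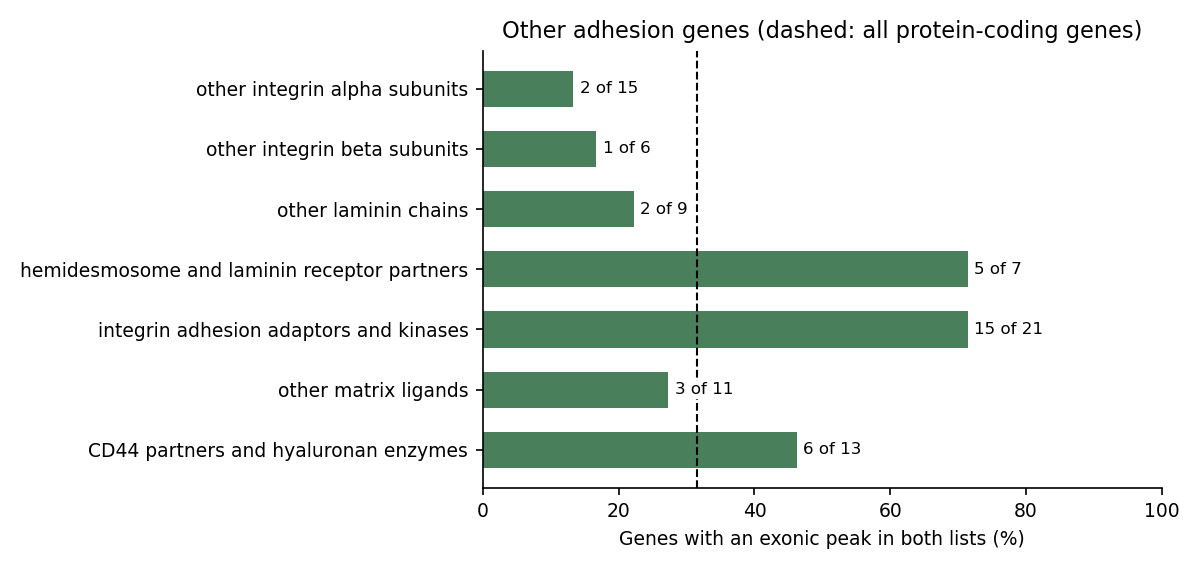
Percent of genes in each adhesion list with an exonic peak in both lists, with counts beside the bars and the share of all protein-coding genes (31.6%) as a dashed line. Hemidesmosome partners (5 of 7), adaptors and kinases (15 of 21) and CD44 partners and hyaluronan enzymes (6 of 13) lay above the line. Other integrin and laminin subunits and other matrix ligands (3 of 11) lay below it.

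Markers of cell types were also counted, although a peak list does not measure expression. All 5 epithelial markers (KRT8, KRT18, KRT19, EPCAM and CDH1) and ERBB2 had a peak in both lists, against 31.6% of all protein-coding genes. None of 4 mesenchymal and none of 2 endothelial markers did, but COL1A1, a mesenchymal marker, had a peak in 1 list. Of 3 leukocyte markers, 1 had a peak in both lists, CD68. Over all protein-coding genes, 55.3% had no exonic peak in either list, so these counts do not settle the cell type. Over the whole lists, the median pileup was 22.0 reads in both replicates, with 5% to 95% of peaks spanning 8 to 75.0 and 8 to 77.0 reads.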

How the data were processed

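LACE-seq peaks of IGF2BP3 in OE-19 cells were analysed from both samples of a single group, with replicates as labelled. According to the methods, the authors removed pre-rRNA reads, aligned to hg38 with Bowtie and called peaks with Piranha, whereas the submitters' processing notes name fastp, HISAT2 and MACS2, without versions, and the files have the MACS2 narrowPeak layout. Peaks were called per replicate, without strand. The deposited files give, per peak, the fold (a ratio over local background at the summit) and p- and q-values as −log10, and the deposited score column was not used. No peak on a named chromosome ended beyond its hg38 length.

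The read number per library is unknown. The summit pileup was recovered for all 21142 and 20799 peaks as the whole number for which the deposited fold, (pileup + 1) over (background + 1), and the Poisson tail of the deposited p-value both hold. In data simulated with known pileups, 1770 of 1770 were recovered. Fold, p and pileup describe peaks within a list.

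Exons came from all GENCODE 44 transcripts. Peak classes were set by most exonic bases, in the order CDS, 3′ UTR, 5′ UTR, non-coding exon. Peak density, coding exons and terminal exons used the Ensembl canonical transcript. Coordinates are 1-based. Shared means an overlap of at least 1 bp. Sequences and motifs were read from hg38 on the gene strand. All 9 genes were named whatever their values, together with the best shared pair of each, any single peak of a gene in a list, and the 3 genes of each adhesion list with the most pairs. Some of these items are not reported here. The genes and lists were chosen with earlier results of these data known, so no test was run. Alternatives changed the overlap rule, transcripts, peaks used, motif window, measure of strength and replicates. Python 3.11.15, NumPy 2.4.6, SciPy 1.17.1, pandas 2.3.3 and matplotlib 3.10.9 were used.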

Additional observations from a re-analysis of the deposited data

Results flagged for a closer look

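The lists held 1 peak in an intron of the 9 genes that touched no exon. It lay in LAMA5 in replicate 1, at chr20:62340025-62340328, with 39 reads at the summit, 4.93-fold enrichment and a −log10 q of 13.6. It had no counterpart in replicate 2, was 1416 nt from the nearest exon and overlapped no other annotated gene. It drew attention because it lies outside the exonic peaks described above, with a pileup above the smallest of 4 reads in the list.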

How the results depend on the processing

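Of 159 recomputed values, 127 were labelled the same and 32 moved, 7 of the latter among the 72 for single genes. The rule behind these labels is not given here, and the same does not mean unchanged. The mean share of peaks overlapping the other list was lower with summits within 50 bp, yet it was labelled the same. Each replicate taken alone also differed from the mean number of peaks under that label. The mean of 40.0 peaks became 23.0 with 50% of the peak in exons, 25.5 with the summit in an exon and 13.0 with the 5000 most significant peaks per list, which left 4 genes in both. With only shared peaks the median fold was 7.39 (6.89 for all peaks). The percentile of the median was 61.1 by −log10 q and 69.2 by pileup (48.2 by fold). The coding share was 35.0% at the summit and 25.7% at the middle of the peak (72.3%). Motif shares were also taken in windows of 50 nt either side of the summit and in the exonic part of peaks. They were 38.7% and 75.3% for GGAC (82.0% in whole peaks), and 19.0% and 41.3% for TGGAC (50.7%). For CATA, CATC or CATT they were 56.3% and 74.3% (91.3%), and for GGCA 38.7% and 63.7% (81.7%). The comparison motifs had 8% and 15% for AAAAA (22.3%), and 27.7% and 18.7% for TTTTT (45.0%). Neither window was longer than the whole peak, and the part of length in these shares was not tested. The rank correlation was −0.0323 by −log10 q and 0.289 by pileup (0.459). First exons in replicate 2 numbered 5 by the summit and 4 by 50% of the peak (8), both added after the data were seen. The causes of the moves were not tested. No paired analysis was possible because the series has a single group. Unknown library depth limits what a missing peak means.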
